A study of Sus scrofa with 6 samples.

Results

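The mitochondrially encoded respiratory chain genes were examined in longissimus dorsi, a muscle of the back, of pigs aged 6 months. The 10 genes, found by symbol among the 30476 Ensembl pig genes of the count table, were *ND1*, *ND2*, *ND4*, *ND5* and *ND6* of complex I, *CYTB* of complex III, *COX1*, *COX2* and *COX3* of complex IV, and *ATP6* of complex V. The rule took them by name and used no measured value, although the choice of this gene group was made with earlier results of these data known, and none of the 10 was missing. The groups were 3 adipocyte-specific UCP1 KI pigs (genotype label UCP1-KI), which carry a UCP1 gene placed by CRISPR/Cas9 so that it is expressed in adipocytes, and 3 wild-type (WT) pigs of the same age and muscle, with 1 library per pig. Pigs have no working UCP1 gene of their own. The promoter at the insertion site, sex, litter and the number of founder clones are not given in the sources used here. Because the inserted gene is described as active in fat and silent in muscle, counts from muscle could not check the genotype, and the gene name table holds no *UCP1*.

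Mitochondrial DNA is a small circle that keeps the genes for the hydrophobic core subunits of the respiratory chain and ATP synthase, while the remaining subunits are encoded in the nucleus and imported. Both of its strands are transcribed into long precursors, which are cut at the tRNAs that lie between most of the genes, and the released mRNAs are mostly polyadenylated. *ND6* alone among the protein genes is read from the light strand. Complex I passes electrons from NADH to ubiquinone, complex III passes them on to cytochrome c, complex IV reduces oxygen, and complex V makes ATP. Muscle is rich in mitochondria, and slow oxidative fibres hold more of them than fast fibres.

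In the order of mitochondrial DNA (chromosome MT, RefSeq coordinates of Sscrofa11.1), the genes were *ND1* (ENSSSCG00000018065, bases 3922 to 4876), *ND2* (ENSSSCG00000018069, bases 5087 to 6128), *COX1* (ENSSSCG00000018075, bases 6511 to 8055), *COX2* (ENSSSCG00000018078, bases 8203 to 8890) and *ATP6* (ENSSSCG00000018081, bases 9120 to 9800). After *ATP6* came *COX3* (ENSSSCG00000018082, bases 9800 to 10583), *ND4* (ENSSSCG00000018087, bases 11359 to 12736), *ND5* (ENSSSCG00000018091, bases 12935 to 14755), *ND6* (ENSSSCG00000018092, bases 14739 to 15266) and *CYTB* (ENSSSCG00000018094, bases 15342 to 16481). Each is a single uninterrupted coding gene, since mitochondrial DNA has no introns.

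Counts per library ranged from 30220951 to 35066624, and TMM factors, which scale libraries to one another, from 0.781 (WT replicate 2) to 1.18. Muscle identity was clear, since 7 of 8 skeletal muscle markers were found and their summed level lay between 54281 and 82154 CPM (counts per 1000000 TMM-scaled counts) in every pig, none of these markers being at 0. Fibroblast markers summed over 6 genes to 235 to 435 CPM in UCP1 KI pigs against 742 to 1187 CPM in WT pigs, and 4 of the 6, *COL1A1*, *COL1A2*, *COL3A1* and *LUM*, passed the limits given below as lower, beside 4.34% of all genes. With a pig left out, *COL1A1* and *COL1A2* were called in 6 of 6 fits, *COL3A1* in 5 and *LUM* in 1. Summed levels overlapped between the groups for slow fibre genes (7419 to 12821 CPM in UCP1 KI pigs and 4338 to 17911 CPM in WT pigs, 6 of 8 found), fast fibre genes (14334 to 46163 and 28503 to 74355 CPM, 5 of 9 found), adipocyte genes (152 to 281 and 125 to 395 CPM, 7 of 7), leukocyte genes (17.8 to 49.4 and 17.2 to 33.2 CPM, 6 of 6), endothelial genes (273 to 508 and 251 to 457 CPM, 4 of 5) and Schwann cell genes (52.3 to 61.7 and 51.6 to 66.1 CPM, 4 of 5). Red blood cell genes were at 11.4 to 76.0 CPM in UCP1 KI pigs and 105 to 180 CPM in WT pigs, without overlap, with 4 of 5 found and 0 of 3 tested passing the limits. The endothelial gene *TEK* passed the limits as higher, beside 3.84% of all genes, and did so in 6 of 6 fits with a pig left out. The leukocyte gene *CD3E* also passed them, but its groups overlapped and it was called in 2 of these 6 fits. No marker that was found was at 0 in every pig. 2 libraries stood apart for the mitochondrial genes. WT replicate 2 had the largest mitochondrial share of counts, together with the lowest slow fibre sum and the highest adipocyte and fibroblast sums, and UCP1 KI replicate 1 had another balance among the genes than the other 5 pigs. The part of these differences in the results below was not tested.

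The first question was how much of the muscle transcriptome came from mitochondrial DNA in each genotype. The 10 genes took 26.6%, 26.3% and 21.9% of all counts in UCP1 KI replicates 1 to 3, and 30.3%, 39.3% and 21.6% in WT replicates 1 to 3. WT replicate 2 was far above the other pigs, and WT replicate 3 was the lowest of the 6. With *ND3*, *ND4L* and *ATP8*, the other protein genes of mitochondrial DNA, the share averaged 25.8% ± 2.73 for the UCP1 KI group and 31.4% ± 9.18 for the WT group (SD, n = 3 each). The difference of -5.58 percentage points was smaller than the spread between WT pigs, and values of the genotypes overlapped (p = 0.5 by a two-sided exact permutation test, which cannot go below 0.1 for 3 pigs against 3). The difference was -0.95 percentage points without WT replicate 2 and -10.1 without WT replicate 3. In a bulk sample, fewer mitochondria-rich fibres and less mitochondrial RNA per fibre cannot be told apart. Complex IV genes held most of this share, with a mean of 16.4% ± 2.02 for the UCP1 KI group and 19.9% ± 5.53 for the WT group, followed by the 5 complex I genes with 4.86% ± 0.469 and 6.04% ± 1.90 (SD over 3 pigs each).

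**Figure D1:**
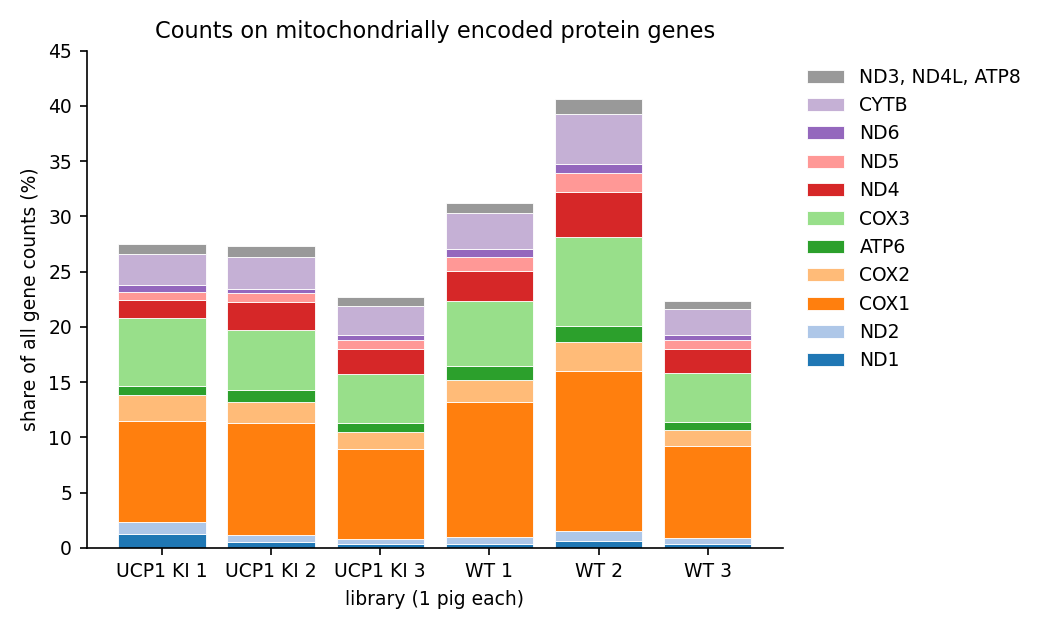
Share of all gene counts (%) on each mitochondrially encoded protein gene, stacked in the order of mitochondrial DNA, for each of the 6 libraries. The total runs from 22.3% in WT replicate 3 to 40.7% in WT replicate 2, and *COX1* and *COX3* make up most of each bar.

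*COX1*, the catalytic subunit of cytochrome c oxidase, was the most abundant of all genes by count in each of the 6 pigs. *COX1*, *COX3*, *CYTB*, *COX2* and *ND4* were among the 20 most abundant genes in every pig, and the lowest place reached by any of the 10 was 39, by *ND1* in WT replicate 1. To compare levels between genes, counts were divided by gene length and expressed as a share of the 10 genes. On this per-kilobase scale *COX3* held 28.2% ± 1.13 (SD, n = 6 pigs) and *COX1* 26.1% ± 1.76, and their ranges over the pigs overlapped. Then came *COX2* with 11.0% ± 1.13 and *CYTB* with 10.4% ± 0.555, which overlapped with each other and were below *COX1* in every pig. *ND4* (7.24% ± 1.30), *ATP6* (5.79% ± 0.786), *ND6* (4.28% ± 0.791), *ND2* (2.64% ± 0.746), *ND1* (2.30% ± 1.34) and *ND5* (2.09% ± 0.373) followed, all below *CYTB*, and each of these neighbours overlapped with the next. Thus *COX3* and *COX1* of complex IV had the most counts per length, and *ND6*, *ND2*, *ND1* and *ND5* of complex I had the lowest means, although all but *ND6* are read from the same strand. How evenly the mRNA libraries captured each of these mRNAs was not tested. The count of *ND6* may include heavy-strand RNA, as described below.

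Complex IV, III and V genes are given first. *COX1* was at 96905, 85550 and 70195 CPM in UCP1 KI replicates 1 to 3 and at 114884, 185629 and 90744 CPM in WT replicates 1 to 3. UCP1 KI replicate 1 lay above WT replicate 3, so the groups overlapped, and the log2 fold change, UCP1 KI against WT, was -0.63 (standard error 0.55), or -0.29 without WT replicate 2. *COX2*, which takes electrons from cytochrome c, was at 24926, 16043 and 12523 CPM in UCP1 KI pigs and 18678, 33823 and 15879 CPM in WT pigs. *COX2* was highest in WT replicate 2 and next highest in UCP1 KI replicate 1, and the log2 difference of -0.35 (standard error 0.50) became 0.04 without WT replicate 2. *COX3*, the remaining core subunit, was at 64604, 46330 and 37520 CPM against 55488, 103702 and 48006 CPM. For *COX3* the log2 fold change was -0.48 (standard error 0.54) with all pigs and -0.07 without WT replicate 2. *CYTB*, the cytochrome b of complex III, was at 29830, 24278 and 21969 CPM in UCP1 KI pigs and 30679, 58568 and 25257 CPM in WT pigs. For *CYTB* the log2 fold change was -0.59 (standard error 0.50), or -0.14 without WT replicate 2, with UCP1 KI replicate 1 between WT replicates 3 and 1. *ATP6*, which forms the proton path of ATP synthase together with the c-ring, was at 8229, 9375 and 7395 CPM against 11328, 17876 and 8246 CPM. Only UCP1 KI replicate 2 lay above a WT pig, WT replicate 3, and the log2 fold change was -0.58 (standard error 0.43), or -0.23 without WT replicate 2.

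Among the complex I genes, the levels of *ND5* and *ND4* did not overlap between the genotypes, which was so for 2 of the 10 genes and for 15.3% of all genes tested. *ND5*, a proton-pumping membrane subunit, was at 7488, 6788 and 6938 CPM in UCP1 KI pigs and 11165, 21376 and 8927 CPM in WT pigs. The UCP1 KI pigs lay close together and below each WT pig, and the log2 fold change was -0.97 (standard error 0.45, unadjusted p = 0.0649 and adjusted p = 0.620 from edgeR). *ND4*, another pumping subunit, was at 17751, 21272 and 19325 CPM in UCP1 KI pigs and 25934, 52403 and 24073 CPM in WT pigs. For *ND4* the log2 fold change was -0.81 (standard error 0.48, unadjusted p = 0.134 and adjusted p = 0.682 from edgeR). Without WT replicate 2, which was highest for both, the log2 fold change was -0.51 for *ND5* and -0.36 for *ND4*. *ND6*, the light-strand gene, was at 6281, 3273 and 4553 CPM against 7297, 10134 and 4661 CPM, with a log2 fold change of -0.65 (standard error 0.44), or -0.35 without WT replicate 2, and 1 UCP1 KI pig, replicate 1, above a WT pig. *ND1* and *ND2* behaved otherwise in 1 library. *ND1*, a subunit at the ubiquinone site, was at 13007 CPM in UCP1 KI replicate 1 but at 4096 and 2808 CPM in replicates 2 and 3, against 3263, 8334 and 3999 CPM in WT pigs. *ND2*, a further pumping subunit, was at 11703, 5856 and 3873 CPM against 6046, 11221 and 5479 CPM. UCP1 KI replicate 1 was the highest pig for both, and their log2 fold changes of 0.35 (standard error 0.66) and -0.09 (standard error 0.53) became -0.59 and -0.64 without it.

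**Figure D2:**
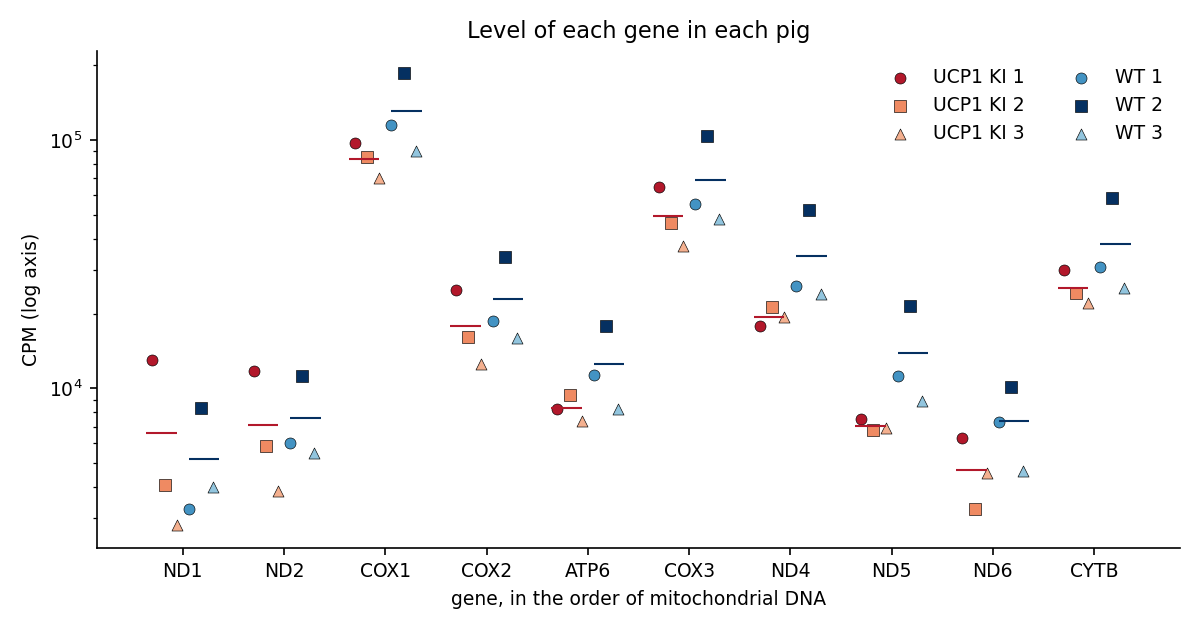
Level of each of the 10 genes in CPM (log axis) in each pig, with a line at the mean of each group. UCP1 KI pigs lie below each WT pig for *ND4* and *ND5*, WT replicate 2 is the highest pig for 8 genes, and UCP1 KI replicate 1 is the highest for *ND1* and *ND2*.

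Over the whole table, a gene was called where edgeR's quasi-likelihood test gave an unadjusted p under 0.05 with an absolute log2 fold change above 0.5, which held for 8.19% of the 13402 genes tested (3.84% higher and 4.34% lower in UCP1 KI pigs). Of the 10 mitochondrial genes, 0 were called by edgeR, 0 had an unadjusted p under 0.05 (8.21% of all genes did), and adjusted p values lay between 0.620 and 0.975. An adjusted p under 0.05 was reached by 0 of all genes with edgeR and by 0.948% of them with DESeq2. DESeq2 on the same genes called 2 of them as lower, *ND4* (unadjusted p = 0.0310) and *ND5* (unadjusted p = 0.0120), where it called 9.77% of all genes, 4.4% as higher and 5.36% as lower, and neither passed its adjusted limit (adjusted p = 0.423 and 0.295 from DESeq2). The log2 fold change was below 0 for 9 of the 10 genes, against 51.3% of all genes tested, with a median of -0.59 beside -0.02 over all genes. Without WT replicate 3, edgeR called *ND5* (-1.20, unadjusted p = 0.0407), 1 of the 10, beside 11.1% of all genes, and 0 of the 10 were called without WT replicate 2 (5.19% of all genes), without UCP1 KI replicate 1 (6.74%) or without both of these (4.09%). Since the 10 mRNAs come from shared precursors and the same 6 libraries, these are not 10 separate observations. The median was -0.19 without WT replicate 2, -0.72 without UCP1 KI replicate 1, -0.29 with both left out (a setting chosen after the values were seen), and -0.29 with library size only, a scaling that raised the median of all genes by 0.26. The range over the 6 pigs had a median of 1.51 on the log2 scale for the 10 genes and 2.12 for the 14 nuclear genes of at least the same mean CPM. The smallest count of any of the 10 in any pig was 106015, for which counting error alone is 0.307%, a figure that does not include noise from library preparation.

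**Figure D3:**
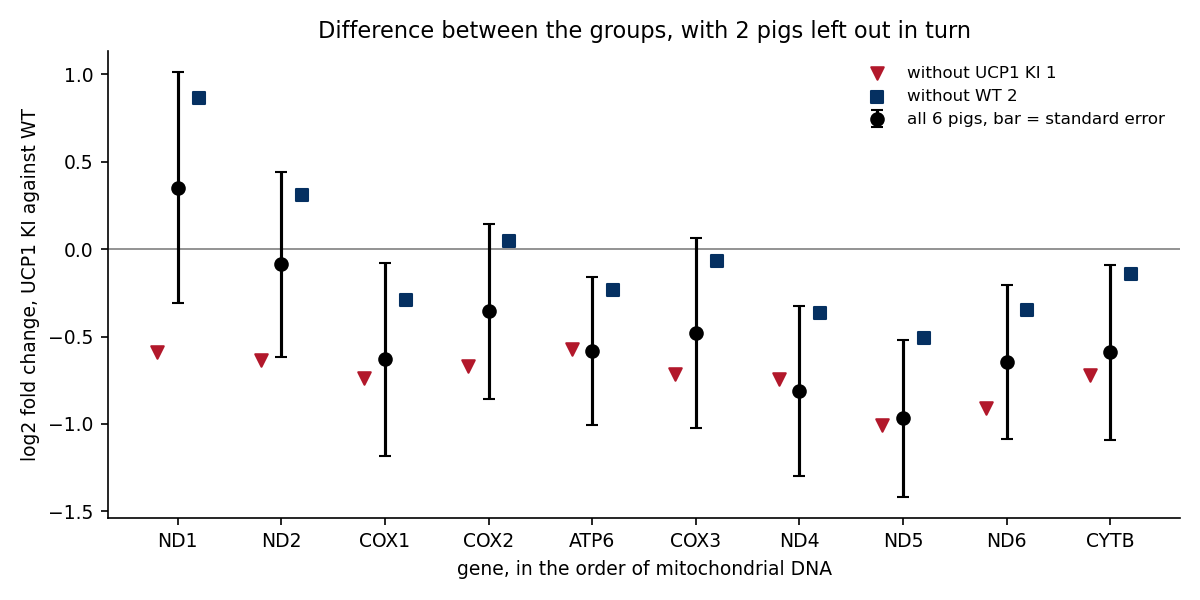
Log2 fold change of each gene, UCP1 KI against WT, in the order of mitochondrial DNA, with its standard error (black), and the value without UCP1 KI replicate 1 (red) or without WT replicate 2 (blue). Without WT replicate 2 each value moves up, to 0.87 for *ND1* and -0.51 for *ND5*, and without UCP1 KI replicate 1 every gene is below 0.

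The next question was whether the 10 genes kept their proportions to one another, a measure that does not depend on how libraries are scaled. This balance was taken as log2 of each gene over the geometric mean of the 10 genes in the same pig. *ND5* stood at -1.31, -0.96 and -0.71 in UCP1 KI replicates 1 to 3 and at -0.58, -0.52 and -0.66 in WT replicates 1 to 3. Each UCP1 KI pig was below each WT pig, by -0.41 on average, and the difference lay between -0.55 and -0.25 with a pig left out. As counts, *ND5* made up 2.67%, 3.05% and 3.71% of the 10 genes for UCP1 KI replicates 1 to 3 and 3.92%, 4.25% and 3.79% for WT replicates 1 to 3. The two-sided exact permutation test gave p = 0.1, the smallest it can give, so it cannot pass 0.05. The balance was compared for 10 genes, of which 1, *ND5*, had no overlap, where 15.3% of all genes tested had none in CPM. *ND4* stood apart in 1 pig alone, at -0.06 in UCP1 KI replicate 1 and between 0.63 and 0.78 in the other 5 pigs, so that its difference of -0.26 vanished without that pig (0.00092). The most constant gene was *COX3*, whose balance covered 0.08 on the log2 scale over the 6 pigs. *COX1*, *COX2*, *CYTB*, *ATP6*, *ND2* and *ND6* overlapped between the groups, with differences from -0.17 for *ND6* to 0.30 for *ND2* and exact p values from 0.4 to 0.9. Without UCP1 KI replicate 1 the difference was -0.20 for *ND6* and 0.064 for *ND2*.

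UCP1 KI replicate 1 was the highest or lowest pig in this balance for 8 of the 10 genes. Its *ND1* stood at -0.51, where the other 5 pigs were between -2.36 and -1.69, and *ND1* was the gene with the widest balance, covering 1.85 on the log2 scale with this pig and 0.67 without it. The difference in balance of *ND1*, UCP1 KI against WT, was 0.61 with all pigs (exact permutation p = 0.4) and 0.17 without UCP1 KI replicate 1. The median width over the 10 genes was 0.73 with all pigs and 0.23 without UCP1 KI replicate 1. *ND1*, *ND2* and *COX2* had their highest balance in this pig, and *COX1*, *ATP6*, *ND4*, *ND5* and *CYTB* their lowest. The count of *ND1* was 1.74 times that of *ND5* in UCP1 KI replicate 1, and 0.292 to 0.603 times in the other 5 pigs.

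**Figure D4:**
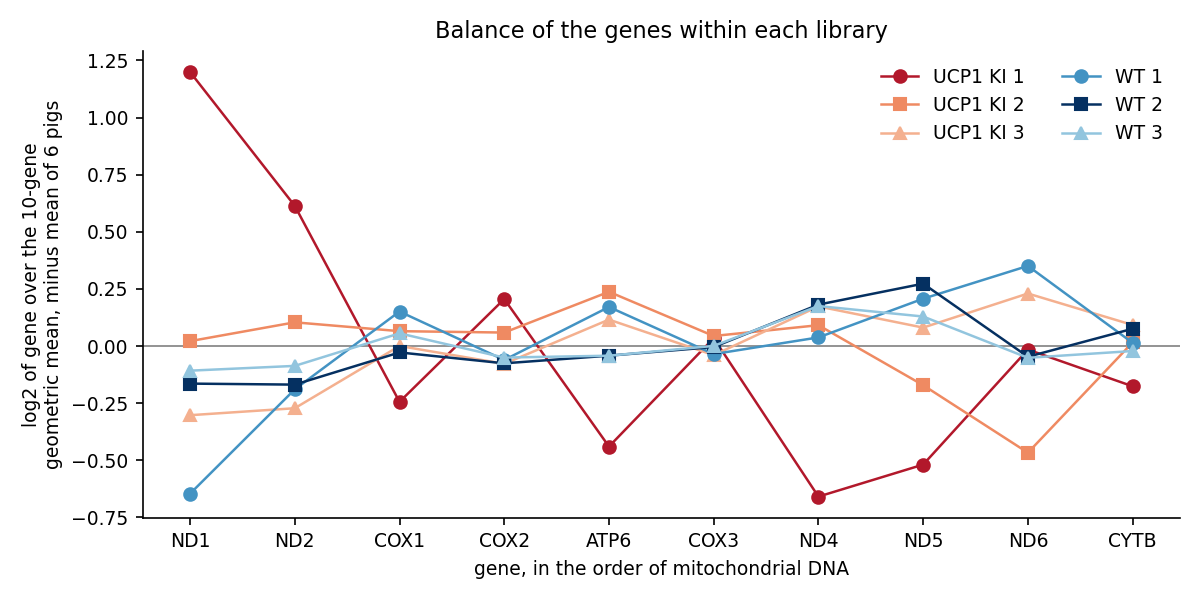
Log2 of each gene over the geometric mean of the 10 genes within a library, minus the mean of the 6 pigs, with genes in the order of mitochondrial DNA. UCP1 KI replicate 1 departs from the other 5 pigs at *ND1*, *ND2*, *ATP6* and *ND4*, and the UCP1 KI pigs lie below the WT pigs at *ND5*.

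Neighbouring genes of mitochondrial DNA overlap, and reads in the shared bases can be assigned to either gene. In the RefSeq annotation *ATP8* shares 43 bases with *ATP6*, *ND4L* shares 7 with *ND4*, *ND5* shares 17 with *ND6*, and *ATP6* shares 1 with *COX3*. *ATP8* and *ATP6* lie on 1 mRNA, as do *ND4L* and *ND4*. The count of *ATP8* over that of *ATP6* was 0.257 in UCP1 KI replicate 1, 0.0624 and 0.0606 in UCP1 KI replicates 2 and 3, and 0.0635, 0.0574 and 0.0804 in WT replicates 1 to 3, so UCP1 KI replicate 1 stood apart here too. *ND4L* over *ND4* was between 0.0774 and 0.120 in the 6 pigs, with overlapping groups. *ND6* lies on the strand opposite to *ND5* and *CYTB*, and because the sources used here do not state whether counting used the strand, reads of *ND6* cannot be told apart from heavy-strand RNA of the same bases. *ND6* over the geometric mean of the other 9 genes, on the log2 scale, was -1.74, -2.24 and -1.46 for the UCP1 KI group and -1.33, -1.77 and -1.78 for the WT group. UCP1 KI replicate 2 was the lowest and WT replicate 1 the highest, and the difference of -0.19 was smaller than the spread within either group (two-sided exact permutation test, p = 0.6).

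The protein genes outside the 10 were *ND3* and *ND4L* of complex I and *ATP8* of complex V. *ND4L*, a small membrane subunit, was at 1375, 2186 and 1592 CPM in UCP1 KI pigs and 2256, 6308 and 2605 CPM in WT pigs, without overlap. It was the only protein gene of mitochondrial DNA that edgeR called, at -1.12 on the log2 scale (standard error 0.48, unadjusted p = 0.0488 and adjusted p = 0.608), and it lost the call without WT replicate 2 (-0.50), without UCP1 KI replicate 1 (-0.97), without both (-0.36), without UCP1 KI replicate 3 (-1.07), with library size only (-0.76) and with a replicate block (-0.98). *ND3* averaged 5584 ± 833 CPM for the UCP1 KI group and 6882 ± 3111 CPM for the WT group, and *ATP8* 1050 ± 927 and 802 ± 195 CPM (SD, n = 3 each), with log2 fold changes of -0.30 and 0.39 and overlapping groups. Both directions turned with a pig left out, to 0.13 for *ND3* without WT replicate 2 and to -0.63 for *ATP8* without UCP1 KI replicate 1. The rRNAs and tRNAs of mitochondrial DNA have no identifier under a symbol in the gene name table and were not analysed here.

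Mitochondrially encoded subunits assemble with nuclear ones, so the nuclear partners were read from the same fit. Of 85 listed nuclear subunits of complexes I to V, 64 were found and 63 tested. Of these, 4 were called as lower and 0 as higher, beside 4.34% and 3.84% of all genes. The median log2 fold change was -0.27, beside -0.02 over all genes, and 57 of the 63 were below 0, against 51.3% of all genes tested. These genes were read from the same libraries, so they are not 63 separate observations. Without UCP1 KI replicate 2, which had the lowest summed level of these subunits (8778 CPM against 13020 to 15790 CPM in the other pigs), the median was -0.07, and without WT replicate 2 it was -0.32. By complex, the medians were -0.32 for complex I (29 genes), -0.04 for complex II (4 genes), which has no mitochondrially encoded subunit, -0.25 for complex III (7 genes), -0.41 for complex IV (12 genes) and -0.18 for complex V (11 genes). With library size only they were -0.07, 0.17, -0.05, -0.17 and 0.07, so that complexes II and V changed sign. Without WT replicate 2 they were -0.26, -0.25, -0.27, -0.40 and -0.33.

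The called partners were 3 accessory subunits of complex I and 1 subunit of ATP synthase. *NDUFA5* averaged 23.0 ± 4.23 CPM for the UCP1 KI group and 52.1 ± 9.34 CPM for the WT group (SD, n = 3 each), without overlap. The log2 fold change of *NDUFA5* was -1.18 (standard error 0.25, unadjusted p = 0.00182 and adjusted p = 0.460 from edgeR), and it was called with any pig left out. *NDUFB1* (-1.03) was likewise called in each of these 6 fits, whereas *NDUFA2* (-0.56) and *ATP5ME* (-0.84), of the ATP synthase membrane part, were called in 1 of them each. The highest complex I partner was *NDUFS1*, the large iron-sulfur subunit, at 0.19. *SDHB* and *SDHC* of complex II were at -0.23 and 0.67, *UQCR11* and *UQCRC2* of complex III at -0.33 and 0.17, *COX4I2* and *COX6A1* of complex IV at -0.74 and -0.06, and *ATP5F1D* of complex V at 0.24, none of them called. Without WT replicate 2, the direction turned for *NDUFS1* (-0.045), *UQCRC2* (-0.18) and *COX6A1* (0.16), while the others named in this and the previous sentence kept theirs. The summed level of the 10 mitochondrial genes was 17.8, 25.4 and 14.4 times that of the 64 nuclear subunits for UCP1 KI replicates 1 to 3 and 18.6, 33.8 and 14.9 times for WT replicates 1 to 3. WT replicate 2 and UCP1 KI replicate 2 had the highest ratios, and the groups overlapped. The former had the highest summed level of the 10 genes, and the latter the lowest summed level of the 64 nuclear subunits.

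**Figure D5:**
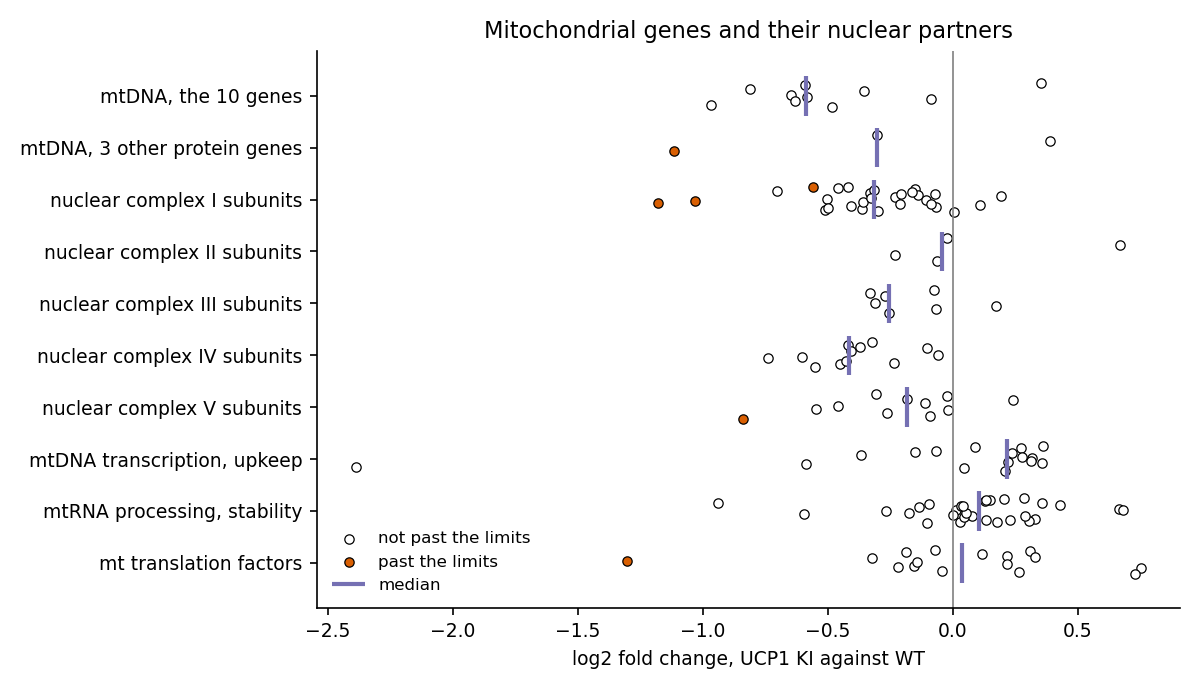
Log2 fold change, UCP1 KI against WT, of each tested gene in the lists of mitochondrially encoded genes, nuclear subunits and factors for mitochondrial DNA, RNA and translation. Filled points passed both limits (unadjusted p under 0.05, log2 fold change beyond 0.5 either way), vertical bars are medians, and the 10 genes have a median of -0.59 with 0 filled points.

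The level of mitochondrial mRNAs depends on nuclear factors that copy and transcribe mitochondrial DNA, cut and stabilise its RNA and translate it. Of 66 such factors listed, 63 were found and 62 tested, of which 1 was called as lower and 0 as higher, beside 4.34% and 3.84% of all genes. The medians were 0.22 for transcription and upkeep (16 genes), 0.10 for RNA processing and stability (30 genes) and 0.037 for translation (16 genes). Without WT replicate 2 they were 0.050, 0.046 and -0.027, and with library size only 0.49, 0.36 and 0.29. The called gene, *MSS51*, encodes a muscle mitochondrial protein whose yeast counterpart activates *COX1* translation. It was at 62.2, 22.6 and 66.8 CPM in UCP1 KI pigs and 116, 133 and 125 CPM in WT pigs, a log2 difference of -1.30 (standard error 0.40, unadjusted p = 0.0125 and adjusted p = 0.583 from edgeR). Every UCP1 KI pig was below every WT pig, and *MSS51* was called with any pig left out, at -1.55 to -0.96. *POLRMT*, the mitochondrial RNA polymerase, averaged 31.5 ± 5.50 CPM for the UCP1 KI group and 24.5 ± 1.33 CPM for the WT group (SD, n = 3 each), without overlap but not called (0.36, standard error 0.22). *MTERF3*, a repressor of mitochondrial transcription, was at 196 ± 29.2 and 253 ± 19.2 CPM (SD, n = 3 each), also without overlap and not called (-0.36). *TOP1MT*, a topoisomerase, was under 1.4 CPM in each pig, where its log2 fold change of -2.39 (standard error 1.11) rests on few counts. In the RNA list the smallest p values belonged to *ELAC2*, which cuts tRNA ends (0.66), *SLIRP*, which stabilises mRNAs together with LRPPRC (-0.59), and the helicase *DDX28* (0.68), and in the translation list, after *MSS51*, to the release factor genes *MTRF1* (0.75) and *MTRFR* (0.73), none of them called.

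The nuclear genes whose profile over the 6 pigs came closest to that of the mitochondrial genes were looked up as a description. Likeness was the root mean square difference between centred log2(CPM + 1) values and the centred mean of the 10 genes, over 11290 nuclear genes with a symbol, for which the median was 0.57 and a flat profile would give 0.46. The 5 closest were *RGS1* (0.09), *LRRC10B* (0.11), *STAB1* (0.11), *NUAK1* (0.13) and *SPHK1* (0.14), and none of them encodes a respiratory chain subunit. *STAB1*, a scavenger receptor of macrophages and endothelium, was at 18.9, 12.9 and 11.7 CPM in UCP1 KI pigs and 21.1, 32.5 and 14.0 CPM in WT pigs, highest in WT replicate 2, where 8 of the 10 mitochondrial genes were highest too, a likeness that follows from how it was chosen. *LRRC10B* was under 1.8 CPM in each pig, so its likeness rests on few counts.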

How the data were processed

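RNA of longissimus dorsi from 3 UCP1 KI and 3 WT pigs was made into mRNA libraries and sequenced in pairs of reads by a company for the authors. Per the paper's methods and the submitters' processing notes, reads were filtered with Trimmomatic 0.36, mapped with HISAT2 2.0 to Sscrofa11.1 and quantified with StringTie 1.3.3b. The program that counted reads, its treatment of strand and of reads shared by overlapping genes or by nuclear copies of mitochondrial DNA are not given in the sources used here. The authors deposited raw counts per gene for 30476 Ensembl genes, with 0 columns left unused.

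The counts went into edgeR 4.0.16 under R 4.3.3 (filterByExpr, TMM factors, two-sided quasi-likelihood test, genotype as the only term), which kept 13402 genes. Standard errors are the size of the log2 fold change over the square root of F, and adjusted p values are Benjamini-Hochberg values over the genes tested. CPM values use TMM-scaled totals. Exact permutation tests (SciPy 1.17.1) enumerated all assignments of the 6 pigs. The p values weigh the difference between genotypes against the spread between pigs within a group, and treat the pigs as independent. Labels do not state that the pigs are unrelated. If they are related, p values may be too small, and litter or founder cannot be told apart from genotype. The fit was tested on simulated data.

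Gene symbols were taken from a table of Ensembl pig names, which held 14864 of the identifiers and 189 of the 225 listed symbols, and gene positions and lengths from a RefSeq table of Sscrofa11.1 matched by symbol. Named genes were the 10 genes, the other mitochondrial protein genes, called factors and those with the smallest p up to 3 per list, the highest and lowest nuclear subunit of each complex, and the 5 nuclear genes of closest profile. *NDUFA2*, *NDUFB1* and called marker genes were named after their values were seen. The genes, lists and rules were chosen with earlier results of these data known. Alternatives were DESeq2 1.42.0, median-of-ratios factors, library size only, scaling on nuclear genes alone, other filters on low counts (any count, or at least 10 counts in every pig), a replicate block, no fold change limit, each pig left out, and, added after the values were seen, UCP1 KI replicate 1 and WT replicate 2 both left out.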

Additional observations from a re-analysis of the deposited data

How the results depend on the processing

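Of the 10 mitochondrial genes, 0 were called under every alternative but DESeq2, which called 2 (*ND4* and *ND5*), and the fits with a pig left out, which called 0 to 1 (*ND5* without WT replicate 3). Genes called over the whole table numbered 1097, from 678 to 1541 with a pig left out (678 with UCP1 KI replicate 2 left out, 718 with WT replicate 2 left out), and 554 with UCP1 KI replicate 1 and WT replicate 2 both left out. With these both left out, log2 fold changes turned for *ND1* (-0.073), and the balance turned for *ATP6* (0.11), *ND4* (0.026) and *CYTB* (0.058), while 2 genes, *ND5* and *CYTB*, had a balance without overlap. With a pig left out, the log2 fold change ranged from -0.59 to 0.87 for *ND1*, from -0.64 to 0.31 for *ND2* and from -0.67 to 0.044 for *COX2*. The number of genes without overlap in balance then ranged from 1 to 5 (5 without UCP1 KI replicate 3), and leaving out a pig can only raise this number. The difference in balance ranged from -0.19 to 0.15 for *ATP6*, from -0.42 to 0.00092 for *ND4*, from -0.33 to 0.023 for *ND6* and from -0.10 to 0.031 for *CYTB*, and the log2 ratio of *ND6* to the other 9 genes from -0.36 to 0.026. *ND2* turned to 0.15 with library size only. The cause of these changes was not tested. Other filters, median-of-ratios factors and scaling on nuclear genes alone changed no direction or call of the 10 genes.

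The replicate block gave 1114 calls, with 0 of the 10 genes among them, and changed none of their directions. Deviations of same-numbered pigs from their group means correlated at 0.02, 0.07 and 0.23 over genes, and UCP1 KI replicate 1 correlated best with WT replicate 2 (0.10), so the pairing rests on a shared number alone.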
